A study of Homo sapiens with 36 samples.

Results

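The genes described here are epithelial keratins, junction proteins and differentiation factors, a list of 40 genes measured across 3 breast cancer cell lines. Each gene was taken from the array probe that carries its symbol alone, and of 2 such probes the one of higher mean over all arrays was kept. Of the 40 genes, 37 were measured, among 17958 genes in all. KRT17 and TJP3 have no listed probe, and OCLN shares its only probe with OCLNP1. The measured genes are 8 keratins, 7 tight junction proteins, 7 desmosomal proteins, the surface glycoproteins EPCAM and MUC1, 9 transcription and splicing factors, and 4 genes of membrane trafficking and the surface protease system.

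The study compared loss of the phosphatase DUSP4 with inhibition of the kinase MEK in MDA231, SUM159PT and BT549, using 36 Affymetrix arrays in 12 groups of 3. All cells were reverse transfected with 10 nM of a pool of siRNA and harvested after 96 h. The siCONTROL group received the non-targeting pool and the vehicle DMSO, and the siDUSP4 group received a pool against DUSP4 with DMSO. The AZD6244 4h and AZD6244 24h groups received the non-targeting pool and 1 uM selumetinib (AZD6244), an inhibitor of MEK1 and MEK2, for the last 4 h or 24 h. The 3 arrays of siCONTROL in a line serve all 3 treatments of that line, so these comparisons share their control arrays. All 3 lines are established from breast tumours that lack the hormone receptors and amplified HER2. MDA231 is the line MDA-MB-231, and BT549 is known to have lost RB1. Each line grew in its own medium, with hydrocortisone for SUM159PT alone, so line and medium cannot be told apart. The labels do not say whether the arrays A, B and C of a group came from separate cultures.

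Keratins are the intermediate filaments of epithelial cells and assemble as pairs of a type I and a type II protein, such as KRT18 with KRT8 in simple epithelium and KRT14 with KRT5 in basal cells. Claudins seal the tight junction, and plakins, plakophilins and desmosomal cadherins anchor keratin filaments at desmosomes. ESRP1 and ESRP2 set epithelial splicing, and the grainyhead, OVOL, ELF3 and EHF factors activate or guard epithelial genes. In carcinoma cells of mesenchymal form much of this set is repressed by ZEB and SNAI factors, which bind E-boxes in epithelial promoters.

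RefSeq promoter windows of GRCh38.p14 were at hand for 23 of the 40 listed genes. In the 250 bases before the start, CAGGTG on either strand, the E-box that ZEB and SNAI factors are known to bind, was found in 14 of the 23 genes (60.9%), against 20.6% of the 27305 genes with a window. A grainyhead motif, AACNGGTT, was found in 0 of the 23 and in 1.85% of all genes. An ETS motif, CCGGAAGT, was found in 2 of the 23 (8.7%), KRT8 and CLDN7, and in 4.13% of all genes. An AP-1 motif, TGANTCA, was found in 1 of the 23 (4.35%), CLDN4, and in 8.06% of all genes. Each motif was searched on both strands, and a match is a description of the letters alone. The windows below belong to MUC1, ELF3, CLDN7 and JUP, which rose in MDA231 after 24 h of selumetinib, and to CLDN1, which fell. They were chosen for their changes and do not stand for the others. Of the 8 genes with a window that rose there, 4 hold CAGGTG and 4 (KRT8, CLDN3, CLDN4 and LSR) do not, the 2 that fell do not, and 8 of the 11 that were not called do. Capitals mark CAGGTG or its complement CACCTG. Where 2 windows are listed for a gene (MUC1, CLDN7, JUP), the first that holds a match is printed.
MUC1: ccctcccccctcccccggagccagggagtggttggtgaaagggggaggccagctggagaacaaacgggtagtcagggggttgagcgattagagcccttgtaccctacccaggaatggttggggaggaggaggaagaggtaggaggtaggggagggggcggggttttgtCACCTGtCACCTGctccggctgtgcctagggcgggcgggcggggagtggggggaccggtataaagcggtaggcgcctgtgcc
ELF3: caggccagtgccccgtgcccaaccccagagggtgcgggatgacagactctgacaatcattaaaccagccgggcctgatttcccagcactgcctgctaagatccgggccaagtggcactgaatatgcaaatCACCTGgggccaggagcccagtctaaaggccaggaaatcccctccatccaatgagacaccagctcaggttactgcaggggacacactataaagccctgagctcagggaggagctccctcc
CLDN7: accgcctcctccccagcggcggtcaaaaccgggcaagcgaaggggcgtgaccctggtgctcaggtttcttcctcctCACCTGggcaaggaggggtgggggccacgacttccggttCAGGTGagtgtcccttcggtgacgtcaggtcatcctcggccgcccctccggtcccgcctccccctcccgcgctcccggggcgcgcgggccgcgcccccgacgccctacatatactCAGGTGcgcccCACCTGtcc
JUP: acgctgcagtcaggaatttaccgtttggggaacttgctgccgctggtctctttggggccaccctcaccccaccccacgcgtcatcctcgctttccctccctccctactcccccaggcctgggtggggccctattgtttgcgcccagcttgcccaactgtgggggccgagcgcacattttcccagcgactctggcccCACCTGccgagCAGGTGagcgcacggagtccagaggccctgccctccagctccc
CLDN1: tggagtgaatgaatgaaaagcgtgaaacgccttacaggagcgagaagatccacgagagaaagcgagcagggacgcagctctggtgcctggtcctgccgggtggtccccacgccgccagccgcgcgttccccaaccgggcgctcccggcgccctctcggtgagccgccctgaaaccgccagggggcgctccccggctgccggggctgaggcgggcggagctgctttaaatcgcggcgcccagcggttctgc

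The MUC1 window lies at chr1:155192916-155193165 on the minus strand and holds 2 matches, which begin 82 and 75 bases before the start. ELF3, at chr1:202010337-202010586 on the plus strand, holds 1 match, beginning 120 bases before the start. CLDN7, at chr17:7262479-7262728 on the minus strand, holds 4 matches, beginning 174, 135, 20 and 9 bases before the start. JUP, at chr17:41785977-41786226 on the minus strand, holds 2, beginning 54 and 43 bases before the start. The CLDN1 window, at chr3:190322447-190322696 on the minus strand, holds 0.

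Values are log2 signals. A gene was called higher or lower at an adjusted p under 0.05 from limma with Benjamini-Hochberg adjustment over all 17958 genes of a comparison, and SE is limma's standard error. Array medians lay between 5.12 and 5.40, and the upper quartile of an array between 7.48 and 8.03. The lowest upper quartiles were those of the MDA231 4 h arrays B (7.48) and C (7.66) and of the BT549 24 h array A (7.50). Some results that rest on these arrays are given below without them. Others, such as the counts for further gene lists, are given with all arrays only. For 24 arrays the source name names SUM159PT where the title names BT549, or the reverse, and the titles were followed. RB1 averaged 6.83 in the siCONTROL arrays titled BT549, against 10.31 in MDA231 and 9.40 in SUM159PT. DUSP4 fell with siDUSP4 in all lines, with log2 changes of -2.42 in MDA231, -1.84 in SUM159PT and -2.24 in BT549. DUSP6, a direct output of ERK signalling, fell at 4 h of selumetinib, with log2 changes of -4.53, -2.91 and -1.60 in the same order of lines. The mesenchymal filament gene VIM stood at 12.15, 11.99 and 11.89 in siCONTROL cells. CDH1, which encodes the epithelial cadherin, stood at 4.30 ± 0.08 (SD, n = 3) in MDA231, 4.23 ± 0.17 in SUM159PT and 5.04 ± 0.32 in BT549, under the median of all values (5.27) in all 3 lines. ESR1 (4.09, 4.31 and 4.21) and PGR (3.40, 3.57 and 3.45), the receptor genes these lines are known to lack, stood low as well. In bulk RNA, fewer cells of a type and less RNA per cell cannot be told apart.

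In siCONTROL cells the epithelial genes were spread unevenly over the lines. Of the 37, 27 stood above the median of all values in MDA231, 20 in SUM159PT and 16 in BT549, while 62.3%, 63% and 61.7% of all genes did. MDA231 held the highest mean of 17 genes and BT549 the lowest mean of 22. This ranking was not made over all genes, and it counts small differences too, such as a range of 0.03 for GRHL2 and 0.08 for RAB25. Against BT549, 20 genes were called higher in MDA231 and 6 lower, where 21.8% of all genes were called higher and 26.3% lower. Against SUM159PT, 14 were called higher in MDA231 and 9 lower, beside 23.1% and 21.7% of all genes. Between SUM159PT and BT549, 14 were called higher in SUM159PT and 7 lower, beside 22.3% and 27.9% of all genes. The median difference over the 37 genes was 0.46 for MDA231 against BT549, where that of all genes was -0.02. It was -0.03 for MDA231 against SUM159PT (all genes -0.01) and 0.23 for SUM159PT against BT549 (all genes -0.01). With the array medians aligned, the last comparison shifted by -0.14 over all genes, and its median over the 37 was 0.09.

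**Figure D1:**
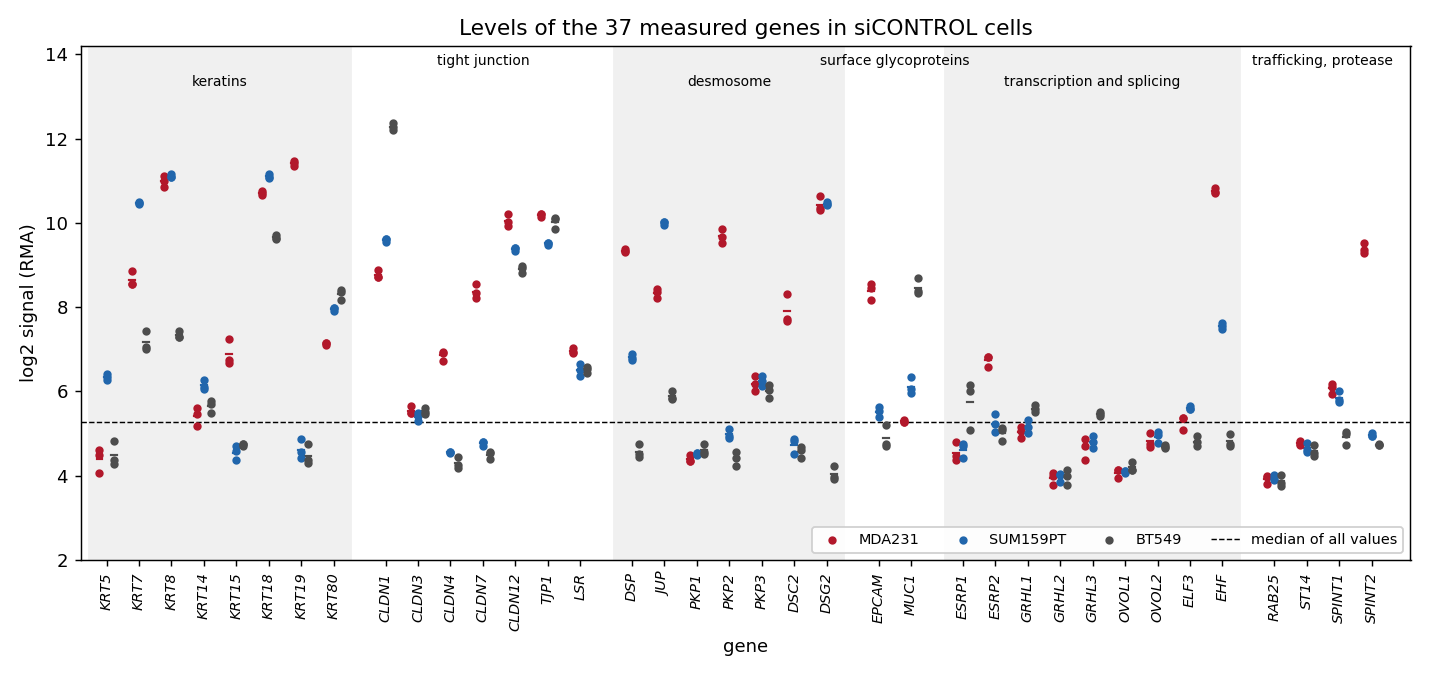
Log2 signal of the 37 measured genes in the 3 siCONTROL arrays of each line, grouped by role, with short bars at the means and a dashed line at the median of all values, 5.27. Heights of different genes come from different probes and are not comparable; within a gene, DSG2, KRT8, KRT19, EHF and PKP2 show lines that lie far apart.

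Among the keratins, the simple epithelial pair read above the median of all values in all lines, at unequal levels. KRT8 read 10.85, 10.99 and 11.11 in MDA231, 11.16, 11.10 and 11.09 in SUM159PT, and 7.28, 7.30 and 7.43 in BT549. For KRT8 the arrays of MDA231 and SUM159PT overlap and those of BT549 lie under both, 3.78 from SUM159PT (SE 0.10, limma adjusted p = 1.4e-25). KRT18, its partner, averaged 10.70 in MDA231, 11.10 in SUM159PT and 9.66 in BT549. KRT19, a keratin of simple and ductal epithelium, read 11.35, 11.47 and 11.41 in MDA231, against 4.87, 4.41 and 4.57 in SUM159PT and 4.74, 4.37 and 4.30 in BT549. Only MDA231 was high for KRT19, by 6.79 over SUM159PT (SE 0.15, limma adjusted p = 6.1e-28) and 6.94 over BT549. KRT7, a keratin of glandular ducts, read 8.54, 8.54 and 8.85 in MDA231 and 10.46, 10.50 and 10.45 in SUM159PT, a difference of -1.83 (SE 0.17, limma adjusted p = 9.4e-11). Of the basal pair, KRT5 read 4.60, 4.07 and 4.48 in MDA231 and 6.28, 6.35 and 6.41 in SUM159PT, a difference of -1.96 (SE 0.17, limma adjusted p = 1.5e-11), and averaged 4.49 in BT549. KRT14 averaged 5.42, 6.14 and 5.65 in the same order of lines.

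Of the tight junction genes, CLDN7 averaged 8.37 in MDA231, 4.77 in SUM159PT and 4.50 in BT549. CLDN4 followed the same order at 6.85, 4.56 and 4.29, and CLDN3 differed by no more than 0.14 between the 3 line means, 5.54, 5.40 and 5.52. CLDN1, the claudin of basal and squamous epithelium, ran the other way. It read 8.87, 8.71 and 8.72 in MDA231, 9.61, 9.54 and 9.62 in SUM159PT, and 12.37, 12.28 and 12.20 in BT549. The 3 lines do not overlap for CLDN1, and MDA231 was lower than BT549, with a difference of -3.52 (SE 0.15, limma adjusted p = 2.7e-20). SUM159PT was lower than BT549 as well, with a difference of -2.69 (SE 0.15, adjusted p = 3.4e-17). TJP1, the junction scaffold also called ZO-1, stood at 10.19, 9.51 and 10.03.

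Desmosomal genes differed between lines by 0.21 (PKP1) to 6.42 (DSG2) from the lowest to the highest line mean. DSG2, a desmosomal cadherin of simple epithelium, read 10.63, 10.36 and 10.31 in MDA231, 10.49, 10.44 and 10.43 in SUM159PT, and 4.22, 3.91 and 3.97 in BT549. BT549 alone was low, by 6.40 against MDA231 (SE 0.13, limma adjusted p = 7.8e-29) and 6.42 against SUM159PT (SE 0.13, adjusted p = 5.2e-29). PKP2, a plakophilin, read 9.85, 9.67 and 9.51 in MDA231 and 4.88, 4.94 and 5.11 in SUM159PT, a difference of 4.70 (SE 0.13, limma adjusted p = 2.7e-25), and averaged 4.41 in BT549. JUP, which encodes plakoglobin, read 8.22, 8.35 and 8.44 in MDA231, 10.01, 9.95 and 10.03 in SUM159PT, and 6.00, 5.81 and 5.85 in BT549. For JUP it was SUM159PT that stood highest. MDA231 differed from it by -1.66 (SE 0.15, limma adjusted p = 2.2e-11), and SUM159PT exceeded BT549 by 4.11 (SE 0.15, adjusted p = 5.6e-22). DSP, the plakin that ties keratin to the desmosome, averaged 9.34, 6.80 and 4.57.

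MUC1, the transmembrane mucin of glandular surfaces, was highest in BT549. It read 5.31, 5.27 and 5.28 in MDA231, 6.05, 5.95 and 6.33 in SUM159PT, and 8.69, 8.33 and 8.37 in BT549. The difference from BT549 was -3.18 in MDA231 (SE 0.21, limma adjusted p = 5.8e-15) and -2.36 in SUM159PT (SE 0.21, adjusted p = 9.5e-12). EPCAM, the epithelial cell adhesion molecule, averaged 8.39 in MDA231, 5.52 in SUM159PT and 4.89 in BT549. Its second probe gave 8.70, 4.11 and 3.90, the same order.

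EHF, an ETS factor of glandular epithelium, read 10.82, 10.73 and 10.70 in MDA231 and 4.74, 4.71 and 4.99 in BT549, a difference of 5.94 (SE 0.13, limma adjusted p = 1.8e-27). SUM159PT lay between them at a mean of 7.55. The splicing factor ESRP1 read 4.79, 4.47 and 4.36 in MDA231, 4.74, 4.70 and 4.41 in SUM159PT, and 5.08, 6.14 and 6.00 in BT549. BT549 was called higher than both for ESRP1, with a difference of -1.20 for MDA231 (SE 0.18, limma adjusted p = 9.7e-07) and -1.12 for SUM159PT (SE 0.18, adjusted p = 2.8e-06), and its array A is the lowest of the 3. SPINT2, an inhibitor of matriptase and related surface proteases, read 9.28, 9.36 and 9.53 in MDA231 and 5.00, 4.95 and 4.95 in SUM159PT, a difference of 4.42 (SE 0.16, limma adjusted p = 1.4e-21). For 6 genes, GRHL2, OVOL1, OVOL2, PKP1, RAB25 and ST14, all 12 group means lay under the median of all values.

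After 24 h of selumetinib, 13 of the 37 genes had risen in MDA231 and 3 had fallen. Of all genes, 7.36% were called higher and 10.3% lower in that comparison. The median change was 0.18 over the 37 and 0.02 over all genes. The 13 that rose were MUC1, the keratins KRT7, KRT80, KRT8 and KRT18, the claudins CLDN7, CLDN3 and CLDN4, the tricellular junction receptor LSR, the desmosomal genes JUP and PKP3, and the factors ELF3 and ESRP1. The 3 that fell were KRT15, CLDN1 and CLDN12. Leaving out any 1 array of the 2 groups gave 14 to 15 calls. Of the 16 calls, 12 held under every alternative tried, and those of KRT18, CLDN4, PKP3 and ESRP1 were each lost under at least 1.

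**Figure D2:**
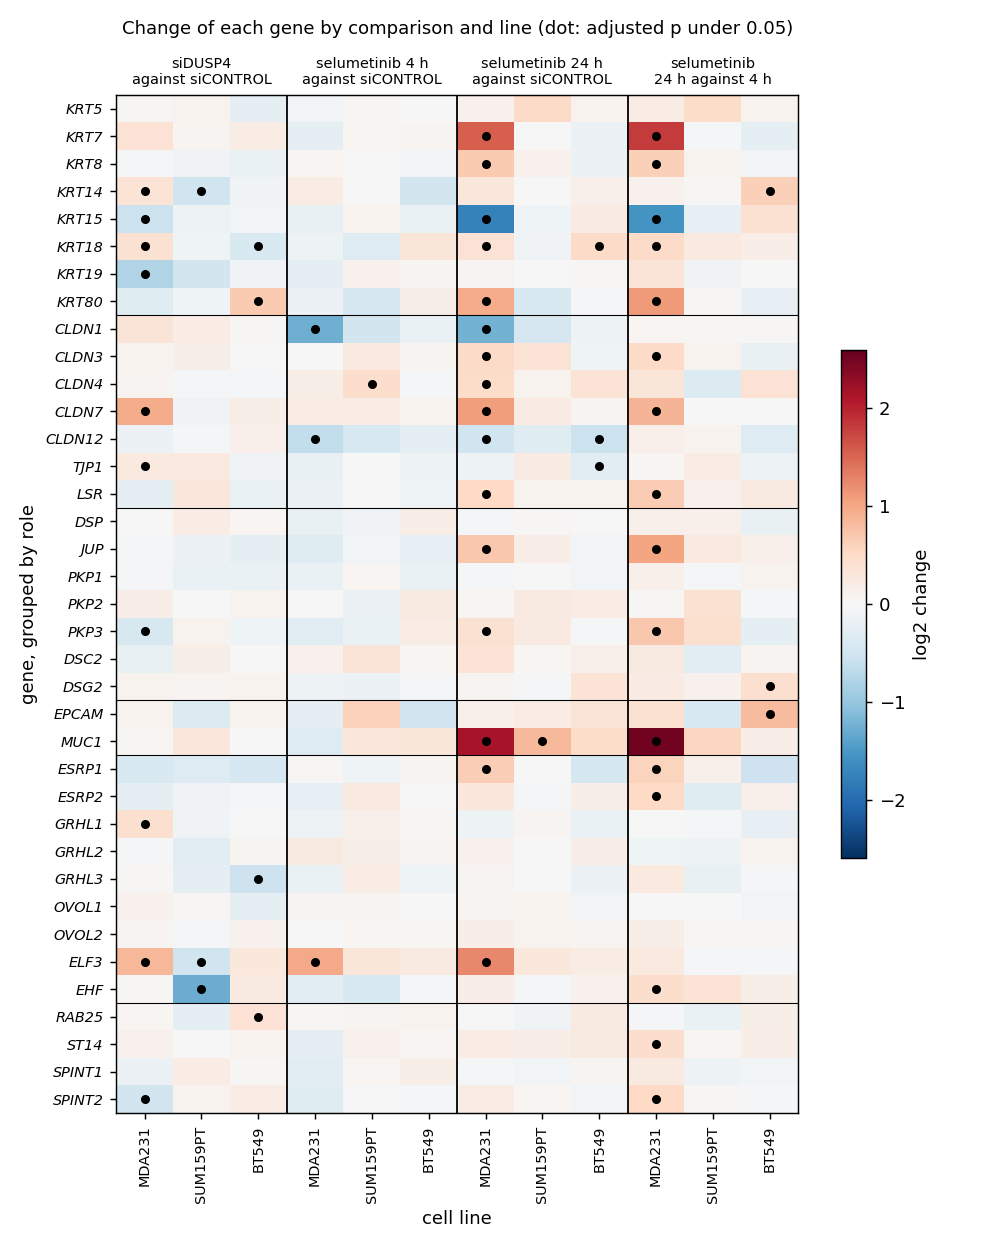
Log2 change of each of the 37 genes (rows, grouped by role) in 4 comparisons and 3 lines (columns), red for higher and blue for lower, with a dot where limma's adjusted p was under 0.05. The MDA231 column at 24 h of selumetinib carries 16 dots, 13 of them on red, while those of SUM159PT and BT549 carry 1 and 3.

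MUC1 made the largest rise. It read 7.61, 7.23 and 7.48 after 24 h in MDA231, against 5.31, 5.27 and 5.28 in siCONTROL, a change of 2.15 (SE 0.21, limma adjusted p = 1.4e-09), to 445% of the control level. All 3 arrays at 24 h lie above every siCONTROL, siDUSP4 and 4 h array of the line, the highest of which read 5.94, and under the siCONTROL arrays of BT549.

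Among the keratins of MDA231 at 24 h, 4 of 8 rose and 1 fell. KRT7 read 10.15, 10.12 and 10.29 against 8.54, 8.54 and 8.85, a rise of 1.55 (SE 0.17, limma adjusted p = 3.9e-08) to 292%. The groups do not overlap, and the 24 h arrays lie just under the siCONTROL arrays of SUM159PT, a line in which KRT7 changed by 0.01 in the same comparison. KRT80, a keratin of differentiating epithelium, rose by 0.96, KRT8 by 0.68 (11.61, 11.70 and 11.67 at 24 h) and KRT18 by 0.37. The KRT18 call was lost on its second probe (adjusted p = 0.058, change 0.34). KRT15, a keratin of basal progenitors, read 4.92, 5.30 and 5.15 at 24 h against 6.75, 7.25 and 6.67, and fell to 29.4%, a change of -1.76 (SE 0.14, limma adjusted p = 3.3e-11). Its 24 h arrays thus lie close to the siCONTROL arrays of the other lines, which run from 4.36 to 4.76. KRT5, KRT14 and KRT19 gave 0.12, 0.29 and 0.08 and were not called.

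**Figure D3:**
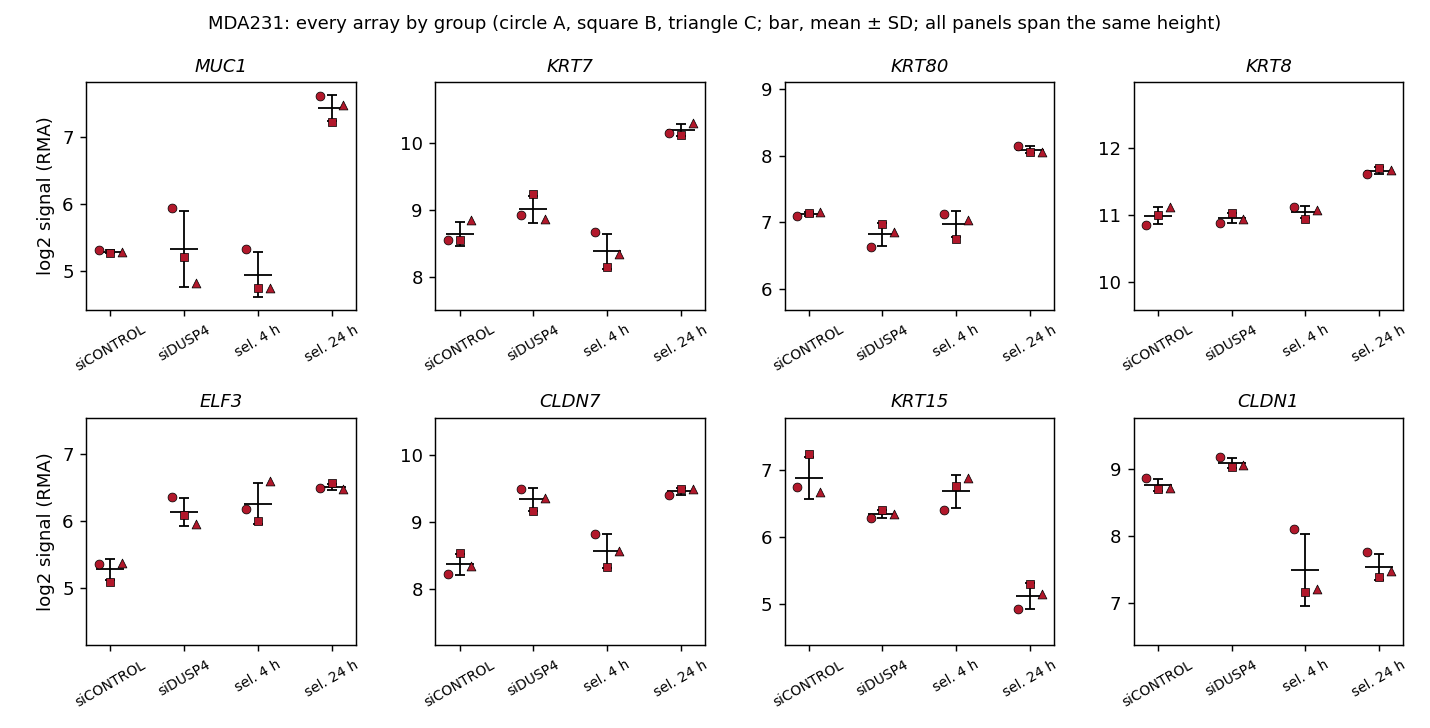
Log2 signal of 8 genes in every MDA231 array by group (circle A, square B, triangle C), with a bar at the mean and whiskers of 1 SD; every panel spans the same height. The 24 h arrays of MUC1, KRT7, KRT80 and KRT8 lie above all other arrays and those of KRT15 below, while ELF3 and CLDN1 had already moved at 4 h.

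Tight junction genes of MDA231 moved both ways at 24 h, with 4 of 7 higher and 2 lower. CLDN7 read 9.40, 9.49 and 9.49 against 8.22, 8.54 and 8.34, a rise of 1.09 (SE 0.14, limma adjusted p = 4.3e-07). LSR rose by 0.52, CLDN3 by 0.49 and CLDN4 by 0.47. CLDN1 read 7.76, 7.39 and 7.48 against 8.87, 8.71 and 8.72, a change of -1.22 (SE 0.15, limma adjusted p = 9.8e-08), to 42.8%. CLDN12, a claudin that lacks the usual anchor for the ZO scaffold, read 9.57, 9.49 and 9.56 against 10.20, 10.02 and 9.92, a change of -0.51 (SE 0.13, limma adjusted p = 0.0059). The claudins that rose thus included the glandular CLDN3, CLDN4 and CLDN7, and neither group of arrays overlapped the other for CLDN1 or CLDN12.

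Of the 7 desmosomal genes, 2 rose in MDA231 at 24 h. JUP read 9.13, 9.01 and 8.99 against 8.22, 8.35 and 8.44, a rise of 0.71 (SE 0.15, limma adjusted p = 6e-04), and PKP3 rose by 0.40 (adjusted p = 0.042 in limma). The 5 others changed by -0.06 to 0.36. ELF3, an ETS factor that drives epithelial differentiation, read 6.49, 6.56 and 6.48 against 5.36, 5.09 and 5.37, a rise of 1.24 (SE 0.13, limma adjusted p = 7.9e-09). ESRP1 read 5.61, 5.10 and 4.79 against 4.79, 4.47 and 4.36, a rise of 0.63 (SE 0.18, limma adjusted p = 0.013), with 2 of its 3 arrays still under the median of all values. EPCAM, EHF and the 4 trafficking and protease genes were not called in this comparison.

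The same exposure moved few of these genes in the other lines. Genes used to check the treatments (DUSP4, DUSP6, SPRY4, ETV4 and ETV5) also fell less there by their median at 24 h. Their median change was -2.56 in MDA231, -1.64 in SUM159PT and -0.72 in BT549, beside 0.02, -0.01 and -0.09 over all genes. Whether this difference bears on the counts below was not tested. In SUM159PT, MUC1 alone was called, and 1.34% of all genes were called higher and 2.94% lower. MUC1 read 6.92, 7.23 and 6.68 there against 6.05, 5.95 and 6.33, a rise of 0.84 (SE 0.21, limma adjusted p = 0.015), and the 2 groups do not overlap. Without the SUM159PT siCONTROL array A or B, or without 24 h array B, that call was lost. With quantile normalization repeated, 3 genes were called higher and 1 lower. An unadjusted p under 0.05 was found for 8 genes, 5 of them up. The share of all genes under that unadjusted threshold was not counted, here or below, so such counts have no background beside them.

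In BT549, 1 gene was called higher and 2 lower at 24 h, while 2.66% of all genes were called higher and 12.4% lower. KRT18 read 10.24, 9.94 and 10.25 against 9.65, 9.61 and 9.72, a rise of 0.49 (SE 0.12, limma adjusted p = 0.0072), and its second probe gave 0.36 (adjusted p = 0.051 in limma). CLDN12 read 7.94, 8.48 and 8.59 against 8.92, 8.98 and 8.80, a change of -0.56 (SE 0.13, limma adjusted p = 0.0067). TJP1 read 9.63, 9.80 and 9.79 against 9.86, 10.12 and 10.09, a change of -0.29 (SE 0.08, limma adjusted p = 0.02). Array A of the 24 h group, with the low upper quartile, was the lowest for CLDN12 and TJP1. Without it these changes were 0.44 for KRT18, -0.36 for CLDN12 and -0.23 for TJP1, with limma adjusted p of 0.056, 0.1 and 0.12, and 2 other genes were called, both higher. Without the BT549 siCONTROL array A 6 genes were called, and without siCONTROL array B 1. MUC1, already high in BT549, read 8.44, 9.15 and 9.24 against 8.69, 8.33 and 8.37, a change of 0.48 that was not called. The groups overlap through the low 24 h array A alone (8.44), and 24 h arrays B and C lie above every siCONTROL array. Quantile normalization repeated gave 2 higher and 1 lower, and aligned array medians 2 higher and 2 lower.

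Whether the 24 h effect differed between lines was tested with an F statistic in the same limma model. It was called for 13 of the 37 genes (35.1%) and for 9.91% of all genes. KRT15 had the smallest adjusted p, 1.9e-08, with changes of -1.76 in MDA231, -0.12 in SUM159PT and 0.21 in BT549. KRT7 (1.55, 0.01 and -0.16) and KRT80 (0.96, -0.40 and -0.06) followed, both with an F-test adjusted p of 8.6e-06. MUC1 changed by 2.15, 0.84 and 0.48, the last not called, and these sizes differed (adjusted p = 3e-04). KRT18 differed as well (0.37, -0.09 and 0.49, adjusted p = 0.04). Leaving out the arrays of 1 replicate letter gave 7 to 11 genes, 7 without the B arrays and 7 without the C arrays.

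After 4 h of selumetinib the set had moved little. In MDA231, 1 gene had risen and 2 had fallen, against 1.11% of all genes higher and 14.5% lower. The median change was -0.16 over the 37 and -0.13 over all genes. ELF3 read 6.18, 5.99 and 6.59 against 5.36, 5.09 and 5.37, a rise of 0.98 (SE 0.13, limma adjusted p = 2.8e-06). CLDN1 read 8.11, 7.17 and 7.21 against 8.87, 8.71 and 8.72, a change of -1.27 (SE 0.15, limma adjusted p = 2.2e-07). Its SD was 0.53 at 4 h and 0.09 in siCONTROL, while the SE assumes 1 spread shared by all 12 groups. CLDN12 read 9.76, 9.10 and 9.33 against 10.20, 10.02 and 9.92, a change of -0.65 (SE 0.13, limma adjusted p = 0.0014).

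The 4 h arrays B and C of MDA231 are those of low upper quartile, and both read lower than array A for CLDN1 and CLDN12. Without both, with array A standing alone and assumed to vary like the other groups, ELF3 changed by 0.91 (limma adjusted p = 0.0011) and CLDN1 by -0.66 (adjusted p = 0.0076). CLDN12 then changed by -0.29 and was not called (adjusted p = 1). Without array A, which leaves only the low arrays B and C at 4 h, 11 genes were called, 1 higher and 10 lower. The share of all genes in that refit is not given here, so this count has no background beside it. The part of the low arrays in the larger falls was not tested beyond these values. With quantile normalization repeated, 2 were called higher and 2 lower in MDA231.

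In SUM159PT, CLDN4 alone was called at 4 h. It read 4.71, 5.30 and 5.01 against 4.57, 4.57 and 4.53, a rise of 0.45 (SE 0.13, limma adjusted p = 0.04), with both groups near or under the median of all values. The shares of all genes were 0.473% higher and 3.81% lower. The CLDN4 call was lost without any one of the siCONTROL arrays, without 4 h array B or without 4 h array C. Scaling decided which genes passed here, since quantile normalization repeated gave 2 lower and aligned array medians 4 lower, with CLDN4 called in neither. CLDN1 changed by -0.47 and CLDN12 by -0.41 in SUM159PT, with adjusted p of 0.058 and 0.075 in limma. In BT549, limma called 0 of the 37 genes at 4 h, with 0.161% of all genes higher and 0.49% lower. An unadjusted p under 0.05 was found for 3 there, 1 up and 2 down, the smallest p being that of KRT14 (-0.48, adjusted p = 0.071).

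The 4 h effect differed between lines for 2 of the 37 genes (5.41%) by the F test, beside 1.84% of all genes. They were CLDN1 (-1.27, -0.47 and -0.17 in MDA231, SUM159PT and BT549, adjusted p = 0.0046) and ELF3 (0.98, 0.32 and 0.24, adjusted p = 0.033). Without both low MDA231 arrays 0 were called by that test. Without the A arrays it called 9, and without the B or the C arrays 0. With the replicate letter as a block it called 1.

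Between 4 h and 24 h of selumetinib, 15 of the 37 genes rose in MDA231 and 1 fell. All genes shifted upwards in that comparison, with 20.4% called higher, 4.48% lower and a median change of 0.12, and the median over the 37 was 0.26. MUC1 went from 5.33, 4.75 and 4.74 at 4 h to 7.61, 7.23 and 7.48, a rise of 2.50 (SE 0.21, limma adjusted p = 9.2e-11). KRT7 went from 8.66, 8.14 and 8.34 to 10.15, 10.12 and 10.29, a rise of 1.81 (SE 0.17, limma adjusted p = 2.5e-09). KRT80 went from 7.13, 6.76 and 7.03 to 8.15, 8.06 and 8.05, a rise of 1.11 (SE 0.13, limma adjusted p = 1.4e-07). KRT15 went from 6.41, 6.77 and 6.88 to 4.92, 5.30 and 5.15, a change of -1.56 (SE 0.14, limma adjusted p = 9e-10). None of these 4 genes had been called at 4 h, and in each the 24 h arrays clear all 4 h arrays.

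The other genes that rose from 4 h to 24 h in MDA231 were JUP, CLDN7, PKP3, LSR, KRT8, ESRP1, SPINT2, ESRP2, KRT18, CLDN3, EHF and ST14, by 0.45 to 1.03. Both low 4 h arrays were also left out, again with 1 array left at 4 h. The share of all genes called in that refit is not given here, so sizes are listed without a count. MUC1 then rose by 2.11, KRT7 by 1.53, KRT80 by 0.96, CLDN7 by 0.63, CLDN3 by 0.55 and KRT8 by 0.54, and KRT15 changed by -1.28. CLDN1 changed by -0.56 in that refit, against a change of 0.05 with all arrays. The changes of JUP (0.53), LSR (0.43), ST14 (0.41), KRT18 (0.39), ESRP1 (0.36), PKP3 (0.35), EHF (0.23), ESRP2 (0.09) and SPINT2 (0.06) were not called without those arrays. With all arrays, ELF3 and CLDN1, which had moved by 4 h, were not called between 4 h and 24 h.

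In SUM159PT limma called 0 of the 37 genes between 4 h and 24 h, beside 2.32% of all genes higher and 0.685% lower. An unadjusted p under 0.05 was found for 8, 7 of them up, the smallest p being that of PKP2 (0.40, adjusted p = 0.084). In BT549, 3 were called, all higher, beside 1.91% of all genes higher and 5.82% lower. KRT14 read 5.66, 5.82 and 5.85 at 24 h against 5.24, 5.16 and 5.12 at 4 h, a rise of 0.61 (SE 0.12, limma adjusted p = 0.0057). EPCAM read 4.61, 5.68 and 5.36 against 4.62, 4.09 and 4.47, a change of 0.82 (SE 0.24, limma adjusted p = 0.031) in which the groups overlap. Its second probe gave 0.14 (adjusted p = 0.68 in limma). DSG2 read 4.10, 4.57 and 4.50 against 4.31, 3.72 and 3.91, a change of 0.42 (SE 0.13, limma adjusted p = 0.041), also with overlap and far under the level of this gene in the other lines. Without 24 h array A, which has the low upper quartile, KRT14 changed by 0.66, EPCAM by 1.12 and DSG2 by 0.56. All 3 stayed called. Leaving out 4 h array B or C left 1 call in BT549.

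The change from 4 h to 24 h differed between lines for 15 of the 37 genes (40.5%) and for 28.2% of all genes. KRT15 (adjusted p = 9e-08 in the F test), KRT7 (3.5e-07) and MUC1 (1.4e-06) led. MUC1 changed by 2.50 in MDA231, 0.56 in SUM159PT and 0.17 in BT549. Without the A, B or C arrays of every group in turn, 4 to 19 genes were called, 6 without the B arrays and 4 without the C arrays.

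Knockdown of DUSP4 moved single genes of the set, with medians over the 37 near those of all genes in each line (0.04, -0.06 and 0.02 beside 0.01, -0.04 and 0.01). In MDA231, 6 genes rose and 4 fell, where 7.86% of all genes were called higher and 9.77% lower. CLDN7 read 9.50, 9.16 and 9.36 against 8.22, 8.54 and 8.34, a rise of 0.97 (SE 0.14, limma adjusted p = 4.7e-06). ELF3 read 6.35, 6.09 and 5.95 against 5.36, 5.09 and 5.37, a rise of 0.86 (SE 0.13, limma adjusted p = 9.5e-06). GRHL1, a grainyhead factor, read 5.44, 5.50 and 5.41 against 5.06, 4.90 and 5.15, a rise of 0.42 (SE 0.12, limma adjusted p = 0.016). CLDN7, ELF3 and KRT18 rose in MDA231 both with siDUSP4 and with 24 h of selumetinib, comparisons that share the siCONTROL arrays. KRT15 fell in both (-0.55 and -1.76), and PKP3 fell with siDUSP4 (-0.41) and rose at 24 h (0.40).

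KRT19 fell with siDUSP4 in MDA231. It read 10.54, 10.70 and 10.63 against 11.35, 11.47 and 11.41, a change of -0.79 (SE 0.15, limma adjusted p = 0.00017), to 58%. KRT15 read 6.28, 6.41 and 6.35 against 6.75, 7.25 and 6.67, a change of -0.55 (SE 0.14, limma adjusted p = 0.006). SPINT2 read 8.66, 9.06 and 9.01 against 9.28, 9.36 and 9.53, a change of -0.48 (SE 0.16, limma adjusted p = 0.037). KRT18 (0.40), KRT14 (0.36) and TJP1 (0.25) also rose, and PKP3 fell (-0.41). Of the 10 calls, those of CLDN7, ELF3 and KRT19 held under every alternative tried. Those of KRT14 and TJP1 were lost under 8 of 13 each, and that of PKP3 under 6. Leaving out single arrays gave 4 to 7 calls, the fewest without siCONTROL array B, 5 without siDUSP4 array B or C, and 6 without siDUSP4 array A. Aligned array medians gave 4 higher and 4 lower.

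In SUM159PT, 3 genes were called with siDUSP4, all lower, where 1.78% of all genes were called lower and 1.05% higher. EHF read 6.05, 6.36 and 6.34 against 7.49, 7.62 and 7.54, a change of -1.30 (SE 0.13, limma adjusted p = 3.6e-08), to 40.6%. KRT14 read 5.56, 5.80 and 5.51 against 6.06, 6.27 and 6.10, a change of -0.52 (SE 0.12, limma adjusted p = 0.013). ELF3 read 5.07, 5.18 and 5.04 against 5.59, 5.58 and 5.64, a change of -0.51 (SE 0.13, limma adjusted p = 0.022). EHF lost more than a full log2 unit in this line, and its 3 knockdown arrays lie under every other SUM159PT array. Without siCONTROL array B, siDUSP4 array A or siDUSP4 array C, 1 call was left. Quantile normalization repeated gave 1 higher and 3 lower.

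In BT549, 2 genes rose and 2 fell with siDUSP4, where 4.97% of all genes were called higher and 9.22% lower. KRT80 read 8.98, 9.04 and 8.95 against 8.16, 8.36 and 8.40, a rise of 0.68 (SE 0.13, limma adjusted p = 0.00038). RAB25, a small GTPase of apical recycling, read 4.28, 4.30 and 4.13 against 3.83, 3.75 and 4.01, a change of 0.37 (SE 0.11, limma adjusted p = 0.018) at a level far under the median of all values. GRHL3 read 4.97, 4.85 and 4.97 against 5.41, 5.51 and 5.46, a change of -0.53 (SE 0.14, limma adjusted p = 0.0083). KRT18 read 9.13, 9.18 and 9.46 against 9.65, 9.61 and 9.72, a change of -0.40 (SE 0.12, limma adjusted p = 0.018). Without siDUSP4 array A or B, 2 calls were left.

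**Figure D4:**
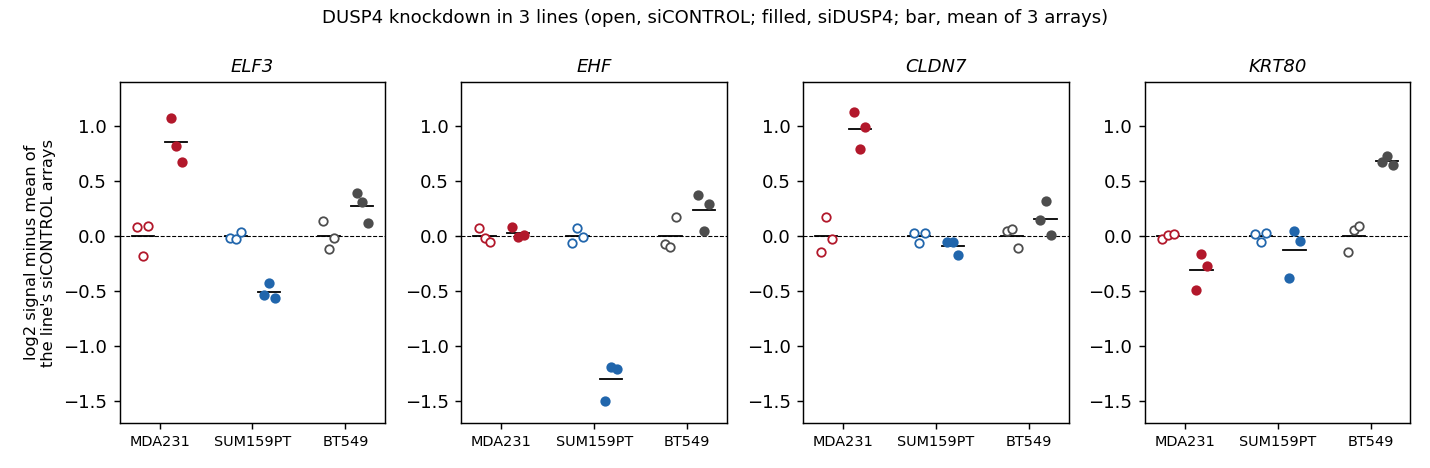
Log2 signal of ELF3, EHF, CLDN7 and KRT80 in siCONTROL (open) and siDUSP4 (filled) arrays of each line, less the mean of the line's siCONTROL arrays, with bars at the means of 3 arrays. ELF3 rose by 0.86 in MDA231 and changed by -0.51 in SUM159PT, EHF moved in SUM159PT, CLDN7 in MDA231 and KRT80 upwards in BT549.

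The effect of siDUSP4 differed between lines for 8 of the 37 genes (21.6%) by the F test, and for 15.5% of all genes. EHF (adjusted p = 4.3e-07) changed by 0.03 in MDA231, -1.30 in SUM159PT and 0.24 in BT549. ELF3 (adjusted p = 9e-06) changed by 0.86, -0.51 and 0.28. KRT80 (adjusted p = 0.00047) changed by -0.31, -0.12 and 0.68. For 3 genes, KRT14, KRT18 and ELF3, one line was called higher and another lower, as for 259 of all genes (1.44%). On its second probe KRT18 changed by 0.35 in MDA231 (adjusted p = 0.052 in limma) and -0.41 in BT549 (adjusted p = 0.026). Leaving out the B or the C arrays left 4 genes in the F test.

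The mean over the 3 lines does not depend on which of the conflicting labels names SUM159PT and BT549. With siDUSP4 it gave 3 genes higher (CLDN7 0.35, ELF3 0.21, TJP1 0.14) and 5 lower (KRT19 -0.46, ESRP1 -0.39, EHF -0.35, KRT15 -0.25, GRHL3 -0.25), beside 7.43% and 11.3% of all genes. At 4 h of selumetinib 1 was higher (ELF3 0.52) and 3 lower (CLDN1 -0.64, CLDN12 -0.43, EHF -0.24), beside 1.12% and 12.7%. At 24 h 11 were higher and 3 lower, beside 7.24% and 19.2%. The largest mean changes at 24 h were those of MUC1 (1.16, SE 0.12, limma adjusted p = 1e-08), ELF3 (0.57) and KRT7 (0.47), and CLDN1 (-0.60), KRT15 (-0.56) and CLDN12 (-0.46) fell. Between 4 h and 24 h 13 were higher and 1 lower, beside 7.65% and 4.47%. ESRP1 was called with siDUSP4 in the mean alone, and its changes in the single lines were -0.40, -0.34 and -0.43. Its siCONTROL and siDUSP4 means lay under the median of all values in MDA231 (4.54 and 4.14) and SUM159PT (4.62 and 4.28). In BT549 the lowest siCONTROL array (5.08) read under every siDUSP4 array, the lowest of which was 5.29. Quantile normalization repeated gave 4 higher and 4 lower for the mean of siDUSP4, and aligned array medians 1 higher and 5 lower. Without the B or the C arrays of every group, 3 genes were called for siDUSP4, 9 and 7 for 24 h, and 4 each for 24 h against 4 h. For 4 h, 9 were called without the A arrays and 2 without the B arrays.

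Of the 37 genes, 9 were called in no comparison within a line: KRT5, GRHL2, OVOL1, OVOL2, DSP, PKP1, PKP2, DSC2 and SPINT1. Of all genes, 42% were called in none. At 24 h of selumetinib 3 of the 37 (8.11%) were called the same way in more than 1 line, beside 5.67% of all genes. MUC1 rose in MDA231 and SUM159PT, KRT18 rose in MDA231 and BT549, and CLDN12 fell in MDA231 and BT549. Each of these genes lost its call under an alternative given above in at least 1 of its lines. With siDUSP4, and at 4 h, no gene of the set was called the same way in more than 1 line, beside 4.04% and 1.65% of all genes.

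A wider list of 40 other epithelial genes was set beside these, of which 31 were measured. At 24 h of selumetinib 6 of the 31 rose and 1 fell in MDA231, with a median change of 0.08 (all genes 0.02), where 7.36% of all genes were called higher and 10.3% lower. MAL2, a raft protein of apical transport, rose there by 1.75 (SE 0.15, limma adjusted p = 1.6e-10) and CDH1 by 0.38 (adjusted p = 0.036 in limma), to a mean of 4.68 that is still under the median of all values. In SUM159PT 2 rose, among them CDH3, which encodes P-cadherin, by 0.70 (adjusted p = 4.9e-05 in limma), and in BT549 2 rose and 3 fell, with LAMB3, a chain of the basement membrane laminin, at -1.12 (adjusted p = 4.3e-06 in limma). The shares of all genes were 1.34% higher and 2.94% lower in SUM159PT, and 2.66% and 12.4% in BT549.

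With siDUSP4, 5 of the wider list rose and 3 fell in MDA231, 1 rose and 1 fell in SUM159PT, and 2 rose and 4 fell in BT549. The shares of all genes were 7.86% higher and 9.77% lower in MDA231, 1.05% and 1.78% in SUM159PT, and 4.97% and 9.22% in BT549, where the 4 that fell are 12.9% of the list. MAL2 rose in MDA231 by 1.63 (SE 0.15, limma adjusted p = 1.5e-09). ITGB4, a hemidesmosomal integrin, fell in MDA231 (-1.54, SE 0.16, limma adjusted p = 1.4e-08) and in BT549 (-1.46), where CDH3 (-1.29) and CDH1 (-0.67) fell as well. At 4 h, 1 rose and 2 fell in MDA231, 1 rose in BT549, and limma called 0 in SUM159PT, where 4 had an unadjusted p under 0.05. The shares of all genes at 4 h were 1.11% higher and 14.5% lower in MDA231, 0.473% and 3.81% in SUM159PT, and 0.161% and 0.49% in BT549. Between 4 h and 24 h, 6 rose in MDA231, 2 rose in SUM159PT, and 1 rose and 4 fell in BT549, beside shares of all genes of 20.4% and 4.48%, 2.32% and 0.685%, and 1.91% and 5.82%.

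All 10 genes of a list of repressors of the epithelial state were measured. In MDA231 at 24 h of selumetinib, 4 rose and 1 fell, with a median change of 0.25, where 7.36% of all genes were called higher and 10.3% lower. SNAI1 rose by 1.26 (SE 0.16, limma adjusted p = 2.3e-07), SNAI2 by 1.03 (SE 0.16, adjusted p = 7.6e-06), TWIST1 by 0.44 and TCF4 by 0.31, and ZEB1 changed by -0.53 (SE 0.08, limma adjusted p = 1.4e-05). In the same arrays MUC1, KRT7 and CLDN7 rose, and a link between the repressors, rising or falling, and these genes was not tested. In SUM159PT SNAI2 alone was called (0.67), beside 1.34% of all genes higher and 2.94% lower. In BT549 limma called 0, with 4 at an unadjusted p under 0.05, beside 2.66% of all genes higher and 12.4% lower.

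At 4 h the repressor SNAI2 rose in SUM159PT (0.56) and BT549 (0.84), and limma called 0 of the 10 in MDA231, with 2 at an unadjusted p under 0.05. Of all genes, 1.11% were called higher and 14.5% lower at 4 h in MDA231. The shares were 0.473% and 3.81% in SUM159PT, and 0.161% and 0.49% in BT549. Between 4 h and 24 h, 4 rose and 1 fell in MDA231, beside 20.4% of all genes higher and 4.48% lower. SNAI2 fell in BT549 (-1.04), beside 1.91% of all genes higher and 5.82% lower. In SUM159PT limma called 0, with 3 at an unadjusted p under 0.05, beside 2.32% of all genes higher and 0.685% lower. With siDUSP4, TCF4 (0.59) and SNAI1 (0.51) rose in MDA231, where 7.86% of all genes were called higher and 9.77% lower. In BT549, 6 of the 10 fell, with a median over the list of -0.45 (all genes 0.01), where 9.22% of all genes were called lower. Those 6 were SNAI2 (-1.20), ZEB2 (-0.68), TWIST2 (-0.60), FOXC2 (-0.52), ZEB1 (-0.47) and TWIST1 (-0.43). In SUM159PT limma called 0 with siDUSP4, with 3 at an unadjusted p under 0.05, beside 1.05% of all genes higher and 1.78% lower.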

How the data were processed

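Expression was measured on Affymetrix arrays of 36 samples in 12 groups of 3. The authors deposited log2 values; the submitters' processing notes name RMA and Affymetrix Expression Console 1.1. Options and design build: not given in the sources used here. RMA scales the probe intensities of all arrays to 1 distribution before they are summarized. The deposited values did not share 1 distribution, with array medians of 5.12 to 5.40 and upper quartiles of 7.48 to 8.03. Groups follow the sample titles. Of 33297 probes, 19181 carry 1 gene symbol in the platform annotation, and the probe of highest mean per gene gave 17958 genes, with no filter on low signal. Probes with several symbols or none were not used here.

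Changes were tested with limma 3.58.1 (lmFit and eBayes) in R 4.3.3, in 1 model with a mean for each group, and Benjamini-Hochberg adjustment over all genes. The p-values measure the spread between these arrays, which may be technical, and 3 arrays per group limit the precision. The fit was tested on simulated data. The members and lists were chosen with earlier results of these data known. Array values were given for up to 3 called genes of largest rise and of largest fall in each comparison, for up to 3 genes of smallest adjusted p in each F test, and for a few genes fixed by name. The 24 h array values of JUP, ESRP1 and KRT8 in MDA231 and of MUC1 in BT549 were added after they were seen. Those of CLDN7 in MDA231 at 24 h also lie outside the rule for that comparison. Alternatives were quantile normalization repeated, array medians aligned, dim genes left out, the mean of all probes of a gene, the replicate letter as a block, the arrays of a line alone and each array left out. Leaving out both low MDA231 4 h arrays and using the other probe of KRT18 and EPCAM were chosen after seeing the data.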

Additional observations from a re-analysis of the deposited data

Results flagged for a closer look

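The change in 38 cases differed between the 3 lines by limma's F test, whose adjusted p is given for each. The changes of those not given in the text above follow in the order MDA231, SUM159PT, BT549.

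With siDUSP4 these were EHF (4.3e-07), ELF3 (9e-06), KRT80 (0.00047), CLDN7 (0.00056, changes 0.97, -0.09 and 0.16), KRT14 (0.0018, 0.36, -0.52 and -0.10), KRT18 (0.0027, 0.40, -0.11 and -0.40), RAB25 (0.02, 0.05, -0.23 and 0.37) and LSR (0.029, -0.23, 0.30 and -0.17). At 4 h of selumetinib they were CLDN1 (0.0046) and ELF3 (0.033).

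At 24 h they were KRT15 (1.9e-08), KRT7 (8.6e-06), KRT80 (8.6e-06), ELF3 (0.00014, 1.24, 0.27 and 0.20), MUC1 (3e-04), KRT8 (0.00037, 0.68, 0.12 and -0.16), CLDN7 (0.00086, 1.09, 0.21 and 0.08), CLDN1 (0.001, -1.22, -0.44 and -0.13) and TJP1 (0.011, -0.13, 0.21 and -0.29). ESRP1 (0.015, 0.63, 0.02 and -0.45), CLDN3 (0.022, 0.49, 0.35 and -0.12), JUP (0.032, 0.71, 0.17 and -0.07) and KRT18 (0.04) differed as well.

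Between 4 h and 24 h they were KRT15 (9e-08, -1.56, -0.21 and 0.39), KRT7 (3.5e-07, 1.81, -0.04 and -0.25), MUC1 (1.4e-06), KRT80 (9.3e-06, 1.11, 0.03 and -0.22), CLDN7 (0.0014, 0.89, 0.02 and -0.01), PKP3 (0.0017, 0.70, 0.41 and -0.26), KRT8 (0.0018, 0.61, 0.10 and -0.08), JUP (0.004, 1.03, 0.25 and 0.14), CLDN4 (0.0054, 0.31, -0.36 and 0.37), ESRP1 (0.0059, 0.58, 0.13 and -0.53). The same held for CLDN3 (0.0069, 0.49, 0.09 and -0.19), EPCAM (0.019, 0.39, -0.39 and 0.82), LSR (0.019, 0.67, 0.12 and 0.23), ESRP2 (0.023, 0.51, -0.31 and 0.13) and KRT14 (0.024, 0.11, 0.03 and 0.61). The EPCAM entry holds for the probe used. On its second probe EPCAM changed by 0.59 in MDA231 (adjusted p = 0.021 in limma), -0.06 in SUM159PT and 0.14 in BT549.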

How the results depend on the processing

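Of the 60 changes called within a line, 28 kept their call under every alternative run, 32 lost it under at least 1 and 0 reversed. Within MDA231 at 24 h, 16 calls became 14 to 15 when 1 array was left out. The counts between siCONTROL lines, 23, 26 and 21, stayed within 1.5 times. With siDUSP4, the arrays of the line alone gave 6 calls in MDA231 (10 in the full model) and 6 in SUM159PT (3), and leaving out dim genes 2 in BT549 (4) and 5 in the mean (8). At 4 h in SUM159PT, 1 call became 2 with repeated quantile normalization, 4 with aligned medians, 3 without dim genes and 6 with the line alone, and in BT549 0 became 1 without dim genes. At 24 h, SUM159PT (1) gave 4 with quantile normalization and 3 with the line alone, and BT549 (3) gave 5 without dim genes and 1 with the line alone. Between 4 h and 24 h, SUM159PT (0) gave 2 with quantile normalization and 2 with the line alone. BT549 (3) gave 1 with the line alone. MDA231 (16) gave fewer without both low 4 h arrays, a refit with 1 array left at 4 h.

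Leaving out 1 array gave 4 to 7 calls for siDUSP4 in MDA231, 1 to 3 in SUM159PT and 2 to 4 in BT549. It gave 3 to 11 at 4 h in MDA231, 0 to 2 in SUM159PT and 0 in BT549. It gave 0 to 2 at 24 h in SUM159PT and 1 to 6 in BT549, and between 4 h and 24 h 12 to 19, 0 to 1 (1 without 4 h array A) and 1 to 3 in the 3 lines. Leaving out a letter gave 3 to 6, 2 to 9, 7 to 19 and 4 to 18 for the means of siDUSP4, 4 h, 24 h and 24 h against 4 h, and 4 to 9, 0 to 9, 7 to 11 and 4 to 19 for the F tests.

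With the replicate letter as a block, 0 of the 60 calls were lost. The block gave 2 calls at 4 h and 2 at 24 h in SUM159PT, 1 there between 4 h and 24 h, and 1 in the F test at 4 h. The labels do not say that a letter pairs arrays, and same-letter arrays deviated together with r over 0.1 in 12 of 54 pairs (range -0.41 to 0.45). The cause of these shifts was not tested. Signals under the median of all values limit what can be said of the dimmest genes.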
